A study of Caenorhabditis elegans with 12 samples.

Results

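The combined mRNA level of the nematode Caenorhabditis elegans is described here, as the sum of the polysomal and nonpolysomal array signals of a culture, in ife-1(bn127) mutants against wild type. A probe set was a member when this sum, on the deposited signal scale, was at least 500 in all 3 cultures of at least 1 genotype. That held for 8753 of 13333 non-control probe sets, which together name 6889 of 10334 measured genes. The members were chosen by the summed signal itself, so how many members differ is given as a description and supports nothing, and a member that reached 500 in 1 genotype only is given by its values with no test. Of the members, 7002 reached 500 in both genotypes, 850 in wild type only and 901 in ife-1 only.

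The study measured, on Affymetrix arrays, which mRNAs sediment with ribosomes when an isoform of the cap-binding factor eIF4E is missing. Both groups were mixed populations of worms, larvae and eggs, fed OP50 bacteria and chicken egg yolk on agar plates and kept at 20 °C for a last passage of 3 days. Lysates ran on gradients of 10 to 45% sucrose, and RNA lighter than 80S (NP) and heavier than 80S (P) was pooled separately. One group was wild type (N2) and the other carried bn127, the single ife-1 allele used, with no transgene or drug named for either; each had 3 separately harvested cultures, numbered by growth set. Worms of all stages and tissues were lysed together, so fewer cells of a type and less RNA per cell cannot be told apart.

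IFE-1 is an eIF4E isoform of the germ line. Proteins of this family bind the cap at the start of an mRNA and recruit the ribosome, and IFE-1 also binds PGL-1, a core protein of the P granules in which germ cells hold RNA. In the hermaphrodite gonad the germ line makes sperm first and then oocytes, which are loaded with mRNAs and proteins for the embryo, whereas cuticle collagens, hedgehog-related proteins and molting enzymes come from the epidermis, mainly in larvae around each molt. A whole-worm mRNA level therefore carries both the activity of a gene and the make-up of the population.

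The signal of 1 array was quantile-normalized with that of all 12, P and NP were added, and the genotypes were compared on the log2 scale with limma's moderated test. In the text, signals are the deposited P + NP sums in the order of cultures 1, 2 and 3, a change is ife-1 minus wild type in log2 after normalization with its standard error (SE, 3 cultures per genotype), and adjusted p is limma's, by Benjamini-Hochberg over all 13333 probe sets, with a threshold of 0.05. "Rose", "fell", "higher" and "lower" for a gene mean that it passed this threshold. The sum gives both fractions the same weight whatever their RNA yield, and normalization removes any overall difference in mRNA amount. Median deposited signals of the arrays lay between 367.3 and 428.6. Across members, log2 levels of wild-type cultures correlated at 0.921 to 0.969 with each other, those of ife-1 cultures at 0.967 to 0.991, and those of different genotypes at 0.805 to 0.873. Wild-type culture 2 stood apart from the other wild-type cultures in sperm genes, as described below, and results that rest on it are given with and without it.

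The mutated gene came first. Summed ife-1 signals were 8855, 7721 and 10534 in wild type against 168, 282 and 178 in ife-1 cultures, and its probe set was called present on 6 of 6 wild-type and 0 of 6 mutant arrays. Every mutant culture lay far below every wild-type culture, and the level was at least 38.1-fold lower in the mutant. That fold is a bound on the ratio of geometric means after normalization, which can differ from the ratio of the signals printed, set against the higher, on each array, of the ife-1 signal itself and the dimmest probe set called present throughout the group. Of its paralogs, ife-3, the isoform that is essential for viability, gave 4315, 5618 and 4742 in wild type and 11412, 9557 and 12896 in ife-1. Every mutant culture was above every wild-type culture, a rise of 1.26 ± 0.18 (adjusted p = 0.00262). The germline isoform ife-5 gave 385, 284 and 308 and 580.1, 544 and 554, reaching 500 in the mutant only. For ife-2, with 824, 1001 and 1209 and 1092, 1198 and 1067, the genotypes overlapped and the difference was 0.08 ± 0.19 (adjusted p = 0.743). The neuronal and muscle isoform ife-4 was not a member.

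Across members the genotypes differed widely. Of the 8753 members, 2258 were higher in ife-1 and 1878 lower at an adjusted p under 0.05, where 21.0% of all probe sets were higher and 18.5% lower. The median change of the members was 0.15, with quartiles at -0.47 and 0.57, against a median of 0.06 over all probe sets. Members at 500 in both genotypes, whose choice did not require a difference, held 1675 higher and 1207 lower probe sets. More changes downward were large: 954 lower members passed 2-fold and 136 passed 4-fold, against 570 and 21 higher members. These counts include members at 500 in 1 genotype only, which the rule favours when they differ. At 500 in both genotypes they were 517 and 47 lower against 313 and 4 higher. Among all 13333 probe sets they were 1180 and 158 lower against 775 and 28 higher. Of the higher members, 2248 had the same direction in P and NP and 2255 in all 3 sets. Of the lower, these counts were 1846 and 1870. Over all probe sets they were 2791 and 2797 of 2804 higher, and 2425 and 2458 of 2470 lower. P and NP are parts of the tested sum and the sets are its cultures, so such agreement supports nothing. The genotypes' cultures did not overlap in 3153 higher and 2329 lower members, beside 29.5% and 24.1% of all probe sets.

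The split of these calls depended on scaling. With arrays scaled on the bacterial control probe sets, 3130 members were higher and 997 lower, and 75.8% of calls were higher against 54.6% after quantile normalization. This scaling moved the median of all probe sets from 0.06 to 0.27. The number of calls also rested on the cultures of sets 1 and 3. Without set 1 there were 104 higher and 452 lower members, and without set 3 there were 468 and 862. Leaving out ife-1 culture 1 alone gave 922 and 1198, ife-1 culture 3 alone 1083 and 1305, and wild-type culture 1 alone 1462 and 1530. Under every one of these 6 settings, all members called higher kept a positive change and all called lower kept a negative one, except 2 lower members under the bacterial scaling. All 6 reuse cultures of the main fit and follow only members that passed it, so a kept sign supports nothing.

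**Figure D1:**
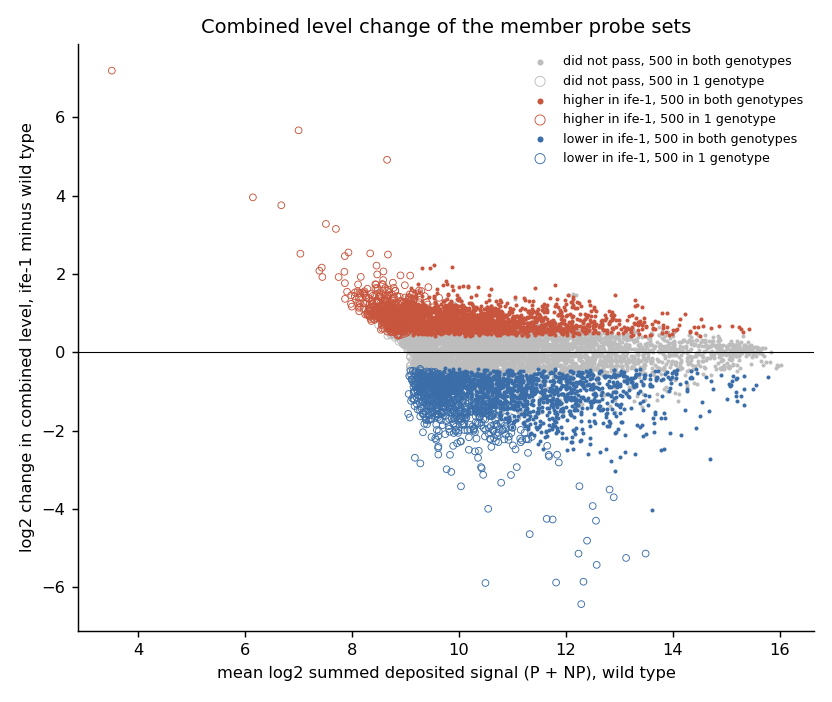
Each point is a member probe set, with its mean log2 summed deposited signal in wild type on the x axis and its log2 change on the y axis; filled points reached 500 in both genotypes and open circles in 1 genotype only. The open circles lie above and below the filled ones because of the rule, and the points run from -6.43 for col-84 to 7.19 for a probe set with several genes.

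Germline RNA granule and small-RNA genes rose together. Of 24 measured P granule and germline Argonaute genes, member or not, 18 rose and 0 fell, with a median change of 0.97. Over all 10334 genes, 19.8% were higher, 19.7% lower and the median was 0.03. The P granule scaffold gene pgl-1, whose protein binds IFE-1, gave 1252, 1033 and 1197 in wild type and 4782, 2516 and 4970.1 in ife-1. Mutant culture 2 was nearest to wild type, but all mutant cultures were above it, and the rise was 1.67 ± 0.27 (adjusted p = 0.00385). The piRNA-binding Argonaute gene prg-1 rose by 1.19 ± 0.20, from 3764, 2933 and 4177 to 8593, 7077 and 9299 (adjusted p = 0.00403). The Argonaute gene ergo-1 gave 449, 502 and 403 in wild type and 1513, 1104 and 1468 in ife-1, and the germline helicase gene glh-3 gave 328, 282 and 309.7 and 909.6, 736 and 688. Both reached 500 in all 3 cultures of ife-1 only. Summed over the 24 genes, the signal was 45183 to 46180 in wild type and 76201 to 88719 in ife-1, a ratio of means of 1.83.

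Maternal RNA regulators, the RNA-binding proteins that control mRNAs in germ cells, oocytes and early embryos, also rose. Of 35 measured genes 29 rose and 0 fell, with a median of 0.74. The CCCH zinc finger gene oma-2, needed for oocyte maturation, gave 4331, 3395 and 4563 in wild type and 10919, 8015 and 10983 in ife-1, a rise of 1.32 ± 0.20 (adjusted p = 0.00309). The Nanos genes nos-3 and nos-2 rose by 1.14 ± 0.14 and 1.15 ± 0.20 (adjusted p = 0.00153 and 0.00486). The polarity regulator mex-5 went from 5519, 5694 and 5971 to 10409.9, 11039.9 and 12458, a rise of 1.06 ± 0.15 (adjusted p = 0.00233). In each of these genes the lowest mutant culture was above the highest wild-type culture.

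Genes of the eggshell and of meiosis and cell division moved the same way. Of 23 eggshell and egg activation genes 13 rose and 2 fell, with a median of 0.64. The chitin synthase gene chs-1, which makes the chitin of the eggshell, was among the 15 largest rises, with 1095, 896 and 1279 in wild type, 4026, 3175 and 3992 in ife-1 and a change of 1.69 ± 0.19 (adjusted p = 0.00127). The gene cbd-1, for a chitin-binding protein of the vitelline layer, rose by 1.19 ± 0.16, and the oocyte surface receptors egg-1 and egg-2 by 1.31 ± 0.25 and 1.15 ± 0.21 (adjusted p = 0.00193, 0.0063 and 0.00572). The exceptions, named after their values were seen, were cpg-9, with a change of -1.65 ± 0.34, and cpg-22, which reached 500 in wild type only. Of 34 meiotic chromosome genes 19 rose and 0 fell, with a median of 0.59 and all 34 changes above 0. The helicase gene him-6, which acts in crossover formation, gave 809, 696 and 664 and 1792, 1582 and 1476, a rise of 1.11 ± 0.16 (adjusted p = 0.00263). The chromosome axis gene htp-2 rose by 0.94 ± 0.15 (adjusted p = 0.0034). Cohesin gene coh-3, with 389, 319.9 and 380.5 and 969, 689.5 and 732, reached 500 in all cultures of ife-1 only.

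Of 42 DNA replication and cell cycle genes 28 rose and 1 fell, with a median of 0.64. The replicative helicase subunit mcm-3 gave 1992, 1706 and 1337 and 4279.5, 4011 and 4858, a rise of 1.30 ± 0.19 (adjusted p = 0.00245). The origin licensing factor cdc-6 and the ribonucleotide reductase subunit rnr-2 rose by 1.20 ± 0.19 and 0.86 ± 0.15 (adjusted p = 0.00316 and 0.00431). The gene that fell was cki-1, an inhibitor of cyclin-dependent kinases that holds cells out of division. Its signals were 3112, 3838 and 2998 in wild type against 1740.5, 1715 and 1961 in ife-1, a fall (adjusted p = 0.00325) that did not pass under the bacterial scaling.

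The 5 measured vitellogenins, yolk proteins that the adult hermaphrodite intestine makes for oocytes, all rose. The probe set IDs of 3 of them, vit-4 and vit-5 included, mark shared probes, so the 5 rises may not be separate. The gene vit-1 rose by 1.35 ± 0.17, from 5456, 3703 and 4474 to 11113, 11017 and 10207 (adjusted p = 0.00176). The much brighter vit-5 gave 45605, 45742 and 40576 and 56741, 62004 and 45629, a rise of 0.59 ± 0.14 (adjusted p = 0.014), and its deposited signals overlapped between the genotypes, since mutant culture 3 was below wild-type culture 2. With deposited signals, with median scaling or with the bacterial scaling 2 of the 5 rose, and vit-4 and vit-5 were among those that did not pass.

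These germline and yolk counts rested on mutant cultures 1 and 3, and the list medians moved less. Without ife-1 culture 1, the risers were 10 of 24 P granule and Argonaute genes, 11 of 35 maternal regulators, 9 of 23 eggshell genes, 8 of 34 meiotic genes, 12 of 42 replication genes and 1 of 5 vitellogenins. Without ife-1 culture 3 they were 13, 13, 9, 11, 12 and 2. Without set 1, which left 2 cultures per genotype, the risers were 2, 1, 1, 3, 1 and 1 in the same order, and the medians were 0.93, 0.77, 0.54, 0.58, 0.65 and 0.59. At an unadjusted p under 0.05, 1 of the 35 maternal regulators was lower, and 0 genes of the P granule, meiotic and vitellogenin lists were. Of the 34 meiotic genes 30 rose under the bacterial scaling. One culture left out gave 1 fall in the P granule list (wild-type culture 2) and 1 among the maternal regulators (wild-type culture 3).

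**Figure D2:**
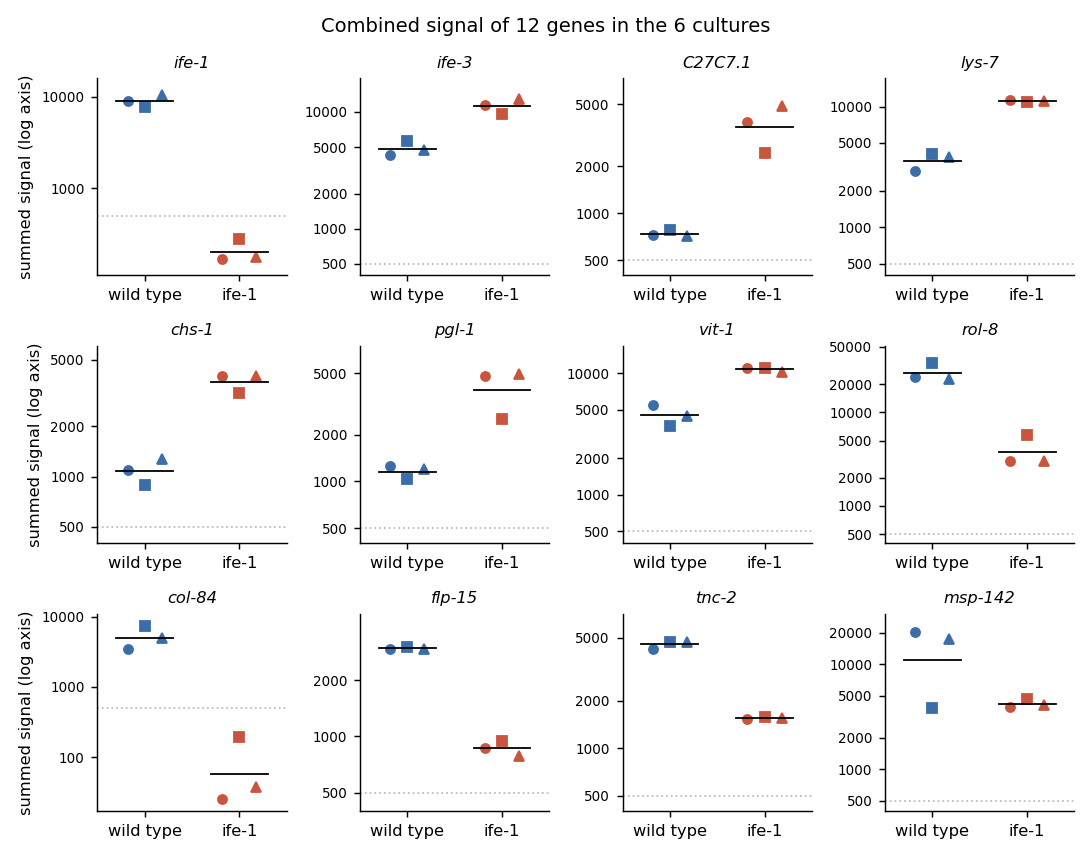
Deposited P + NP sums of 12 genes in the 6 cultures, on a log axis; circles, squares and triangles are sets 1, 2 and 3, black lines are geometric means and the dotted line is the membership threshold of 500. Cultures of the genotypes do not overlap except for msp-142, where wild-type culture 2 lies below all ife-1 cultures.

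Whether sperm genes passed as lower in ife-1 depended on wild-type culture 2. The 23 measured major sperm protein genes encode the cytoskeletal protein of nematode sperm, and the IDs of all 23 probe sets mark shared probes, so single genes are uncertain. Of these members 0 passed limma's test, 3 had an unadjusted p under 0.05, all below 0, and the median change was -0.72. Summed over the list, wild-type cultures gave 803582, 297721 and 721972 and ife-1 cultures 305972, 356861 and 320455. Wild-type culture 2 was thus as low as the mutant, while wild-type cultures 1 and 3 were more than 2-fold above it. For msp-142 the signals were 20128, 3803 and 17356 and 3926, 4626 and 4061, with a difference of -1.40 ± 0.54 (adjusted p = 0.0731). Without wild-type culture 2, 22 of 23 fell, with a median of -1.20. That culture was singled out by its low sperm signals, so sperm gene counts without it only describe this dependence and support nothing. The 31 spermatogenesis genes outside this family behaved alike: 2 fell, swm-1 and ssp-37, and 19 fell without wild-type culture 2. With deposited signals or median scaling 4 fell, and under the bacterial scaling 0. Of 4 male-enriched genes, of which swm-1 was the member, 1 rose and 1 fell, and 3 fell without wild-type culture 2. The sperm phosphatase genes gsp-3 and gsp-4, fixed as markers, gave 7349, 1253 and 6434 and 6020.3, 1146 and 6053 in wild type, again lowest in culture 2, and 3147, 2843 and 2844 and 2370.1, 2266 and 2497 in ife-1. Of swm-1 and ssp-37, neither kept its call without wild-type culture 1, wild-type culture 3, ife-1 culture 1 or ife-1 culture 3. The ssp-37 call was also lost without ife-1 culture 2 and, at an adjusted p of 0.0648, with the set number as a block.

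Small secreted peptides of the nsp families and C-type lectins moved with wild-type culture 2 in part. Of 24 nsp genes 9 fell and 2 rose, and without wild-type culture 2 the counts were 15 and 2. IDs of 17 of the 24 probe sets mark shared probes, so single nsp genes are uncertain. Without wild-type culture 1, ife-1 culture 1 or ife-1 culture 3, 5 of the nsp genes fell. Among the 15 largest falls was nspb-10, with 3692, 1452 and 4811 in wild type and 539, 726 and 639 in ife-1, a change of -2.26 ± 0.41 (adjusted p = 0.00523). In the opposite direction nspe-7 gave 177, 221 and 231 in wild type and 1716, 2324 and 1371 in ife-1, reaching 500 in the mutant only. Of 75 C-type lectin genes 18 fell and 5 rose, and without wild-type culture 2 the counts were 37 and 9. Over all genes 19.8% were higher and 19.7% lower, so the share of lectin falls was near that of all genes. Without wild-type culture 2, 2270 of all 8753 members were higher and 1994 lower, against 2258 and 1878 with it. Leaving out ife-1 culture 1 or 3 singly left 3 of the lectin genes rising, as did deposited signals and median scaling, and the mean of log2 P and log2 NP gave 9. Whether sperm content had a part in these lists was not tested.

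Epidermal and cuticle genes held the largest falls. Of 92 measured col genes, which encode the collagens of the cuticle, 66 fell and 1 (col-101, named after its value was seen) rose, with a median of -1.42. Of 19 collagens whose mutants alter body shape 14 fell and 0 rose, with a median of -1.77. The largest fall among genes at 500 in all 6 cultures was that of rol-8, a collagen whose mutants roll. Its signals were 23939.6, 33956 and 22861 in wild type against 3054, 5748 and 3004 in ife-1, a change of -2.72 ± 0.29 (adjusted p = 0.00103). The larval collagen rol-6 gave 5087, 6563 and 5397 and 828, 1752 and 1028, a change of -2.33 ± 0.28 (adjusted p = 0.00143), and the furrow collagen dpy-8 gave 3383, 4777 and 4489 and 642, 1016 and 630.5, a change of -2.50 ± 0.22 (adjusted p = 0.000757). In all of them ife-1 culture 2 was the highest of the mutant cultures. Other col genes among the 15 largest falls were col-41, col-39 and col-176, with changes of -2.67 ± 0.31, -2.48 ± 0.26 and -2.47 ± 0.25.

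Collagens that nearly vanished from the mutant reached 500 in wild type only and are described without a test. For col-84 the signals were 3429, 7273 and 5054 in wild type against 25.9, 193 and 38.2 in ife-1, with present calls on 6 of 6 wild-type and 0 of 6 mutant arrays. By the bound used for ife-1, on geometric means after normalization, the col-84 level was at least 80.6-fold lower. For col-102 the signals were 2181, 4991 and 4355 and 88.8, 96.4 and 25.7, at least 57.1-fold lower by the same bound. For col-35 they were 1031, 2172 and 1354 and 17.5, 36.0 and 34.9, at least 45.4-fold lower by that bound. In col-84, col-35 and col-102 alike wild-type culture 2 was the highest of all cultures. The gene col-2 gave 7764, 19259.8 and 10300.2 in wild type and 169.7, 611 and 234 in ife-1, and col-37 gave 4512, 8112 and 4315 and 143, 299 and 127. All 5 had every mutant culture below every wild-type culture.

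The hedgehog-related and patched-related proteins, which nematodes use in the epidermis and its molting rather than in a canonical hedgehog pathway, also fell. Of 47 measured genes 35 fell and 1 (ptr-2) rose, with a median of -1.17. The gene grd-10 gave 9172, 10986 and 10035 in wild type and 1597, 2283 and 1301 in ife-1, a change of -2.60 ± 0.23 (adjusted p = 0.000757). Its relative grd-14 gave 7938, 5321 and 7942 and 1078, 1930.1 and 1029, a change of -2.47 ± 0.28 (adjusted p = 0.0012). At 500 in wild type only were grl-23, with 4166, 8658 and 3808 against 39.3, 385 and 42.7, and grl-20, with 4595, 8428 and 5930.5 against 90.5, 312 and 88.6. In both, ife-1 culture 2 kept more signal than the other mutant cultures. Of 28 molting and cuticle assembly genes 13 fell and 0 rose, with a median of -0.65. Among them mlt-8, a molting factor, gave 2971, 3858 and 3168 and 827, 1241 and 849, a change of -1.86 ± 0.20 (adjusted p = 0.00103). The body-length gene lon-8, expressed in the epidermis, gave 4456, 4796 and 5584 and 968, 1476 and 849, a change of -2.25 ± 0.23 (adjusted p = 0.000963).

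Summed signals placed mutant culture 2 nearest to wild type in these lists. The col genes had a ratio of mutant to wild-type means of 0.541, the body-shape collagens 0.441 and the hedgehog-related genes 0.365. For the hedgehog-related genes the sums were 92766, 108481 and 97913 in wild type, against 33699, 42148 and 33329 in mutants. Without set 1, 34 of 92 col genes, 9 of 19 body-shape collagens and 16 of 47 hedgehog-related genes fell, and 6 of 28 molting genes. With any single culture left out these 4 counts of falls stayed within 1.5 times. The larval share of the cultures was not measured apart from such genes, and its part in the falls was not tested.

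**Figure D3:**
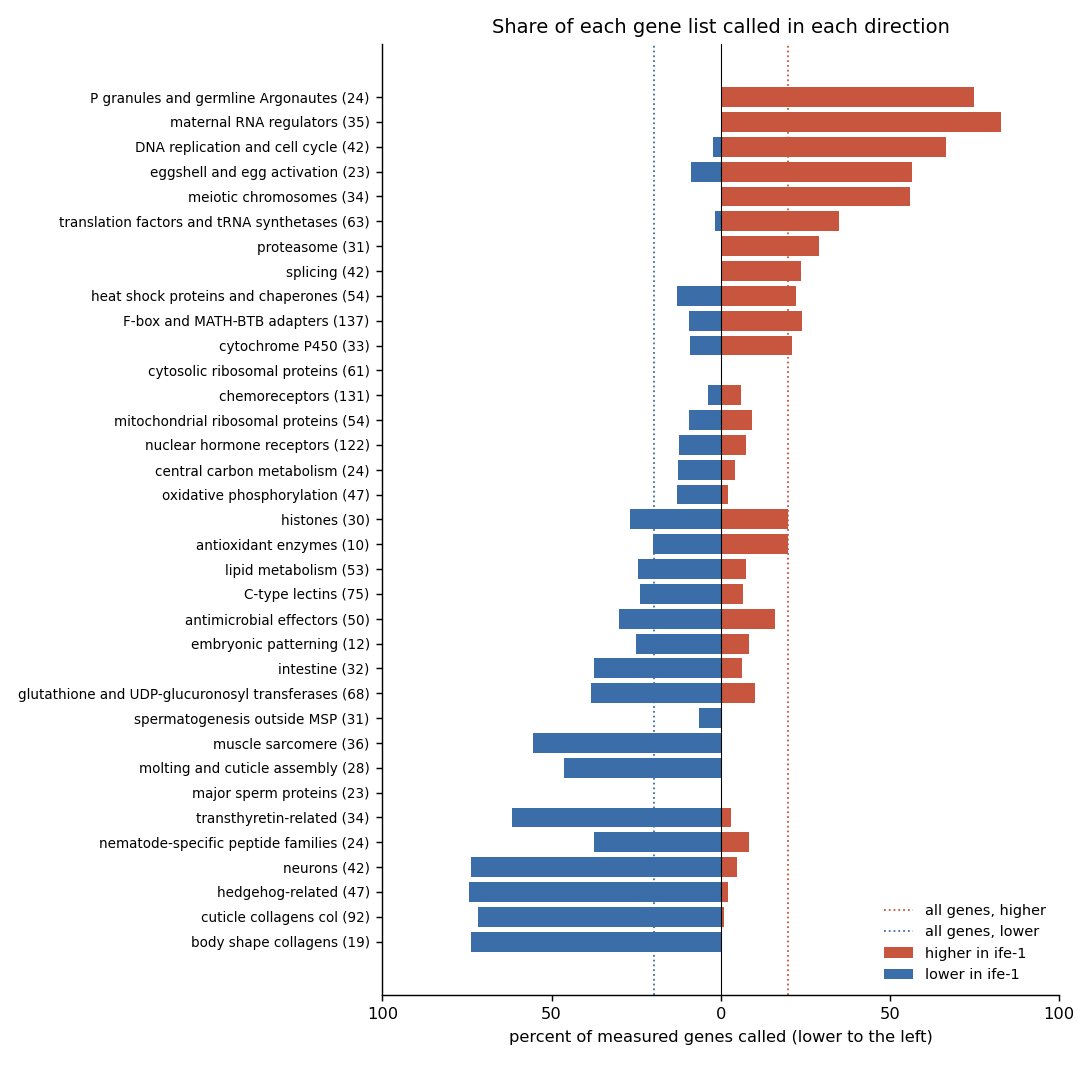
Bars give the percent of measured genes of each list that were higher (to the right) or lower (to the left) in ife-1, with the number of genes in brackets and lists of under 10 genes left out; dotted lines are the shares over all genes, 19.8% and 19.7%. Apart from the sperm lists, germline and cell cycle lists lie to the right, and epidermal, neuronal and muscle lists to the left.

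Most of the measured neuronal genes fell. Of 42 measured genes of transmitter release, transmitter synthesis and neuropeptides 31 fell and 2 rose, with a median of -1.10. The FMRFamide-like peptide gene flp-15 gave 2919, 3001 and 2946 in wild type and 866, 949 and 789 in ife-1, a change of -1.85 ± 0.14 (adjusted p = 0.000486). For flp-12 the signals were 3234, 3524 and 3509 and 829, 1179.9 and 900.4, a change of -1.92 ± 0.17 (adjusted p = 0.000827). The genes flp-19 and flp-9 fell by 1.67 ± 0.15 and 1.47 ± 0.14 on the log2 scale (adjusted p = 0.000757 and 0.000919). Markers of synapses split: rab-3 of the vesicle membrane changed by -1.07 ± 0.20 (adjusted p = 0.00621), whereas the synaptobrevin gene snb-1 differed by 0.05 ± 0.14 (adjusted p = 0.782).

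The neuronal genes that rose were tbh-1 and tdc-1, which encode the enzymes that make octopamine from tyramine and tyramine from tyrosine, and which are known to be active in cells of the gonadal sheath as well as in neurons. Signals of tbh-1 were 719, 1058 and 1084 in wild type against 5351, 2963 and 5312 in ife-1. Mutant culture 2 was the lowest of the mutant cultures and still above every wild-type culture, and the rise of 2.17 ± 0.28 (adjusted p = 0.00183) was the second largest among genes at 500 in all 6 cultures. For tdc-1 they were 652, 583 and 607 and 2103, 1389 and 2263, a rise of 1.53 ± 0.20 (adjusted p = 0.00197).

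Muscle genes fell too. Of 36 sarcomere and attachment genes 20 fell and 0 rose, with a median of -0.57. The troponin C gene tnc-2 of the pharynx gave 4252, 4702 and 4711 in wild type and 1536, 1573 and 1541 in ife-1, a change of -1.65 ± 0.14 (adjusted p = 0.000659), and both genotypes were tight. The pharyngeal troponin I gene tni-4 gave 1614, 2291 and 2324 and 872, 855 and 845, a change of -1.34 ± 0.18 (adjusted p = 0.00209). The perlecan gene unc-52, which anchors body wall muscle, changed by -1.03 ± 0.14 (adjusted p = 0.00209). Of the markers of body wall muscle, the myosin heavy chain gene myo-3 passed, with a change of -0.64 ± 0.16 (adjusted p = 0.0159). The others did not pass: the myosin heavy chain gene unc-54 differed by -0.33 ± 0.20 and the paramyosin gene unc-15 by -0.08 ± 0.14 (adjusted p = 0.23 and 0.688). Under the bacterial scaling 8 of the 36 fell, without ife-1 culture 1 there were 12, and the medians were -0.39 and -0.57.

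The intestine list was mixed. Of 32 genes 12 fell and 2 rose (cpr-3 and cpr-6), with a median of -0.35. The intermediate filament gene ifb-2 of the gut lining gave 5848, 9130.4 and 6141 in wild type and 2258, 2538 and 2395 in ife-1, a change of -1.58 ± 0.19 (adjusted p = 0.00145). The acid phosphatase gene pho-1, with 1813, 1872 and 1737 and 377, 629 and 397, reached 500 in wild type only. The gut esterase gene ges-1 changed by -0.42 ± 0.14 (adjusted p = 0.0465), and the intestinal identity factor elt-2 was not a member. The gut-made vitellogenins moved in the opposite direction, as above. Under the bacterial scaling 6 of 32 fell and without ife-1 culture 1 also 6. Leaving out wild-type culture 1, ife-1 culture 1 or ife-1 culture 2 singly, 0 rose by limma, and without ife-1 culture 3 or wild-type culture 3 there was 1.

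**Figure D4:**
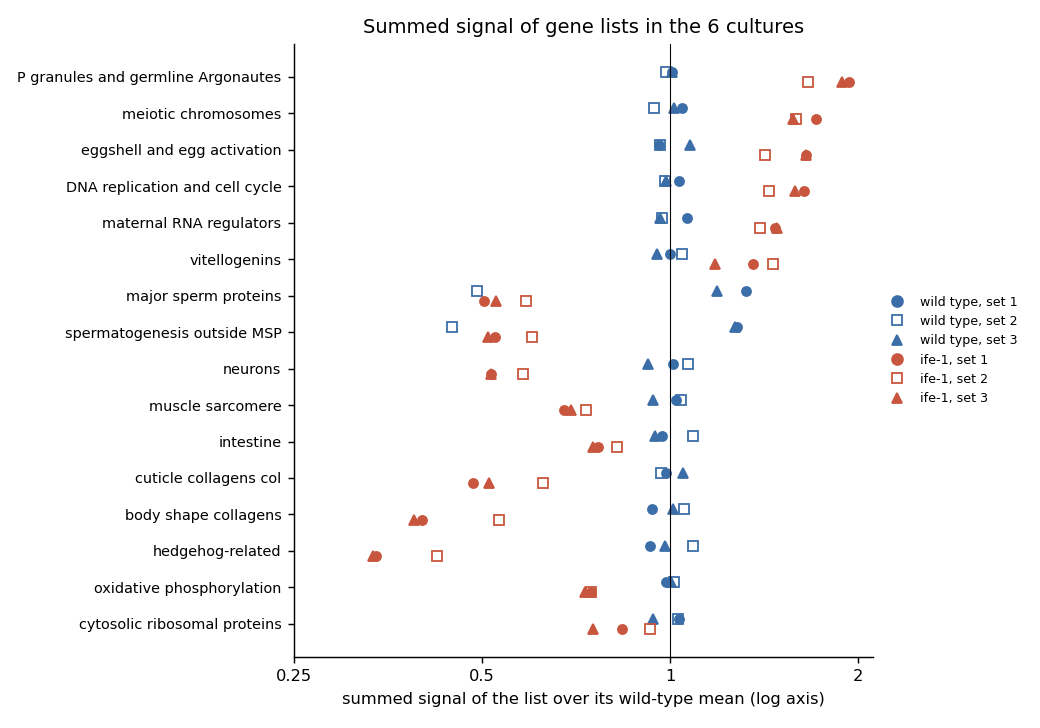
Summed deposited signal of 16 gene lists in each culture, divided by the mean of the wild-type cultures, on a log axis; blue marks are wild type, red marks ife-1, and shapes are sets. Both sperm lists have wild-type culture 2 beside the ife-1 cultures, while the other germline lists lie above 1 and the epidermal lists below 1 in all ife-1 cultures.

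Defence genes changed in both directions. Of 50 genes for lysozymes, saposin-like proteins and other antimicrobial effectors 8 rose and 15 fell, with a median of -0.25. Beside them, 19.8% of all genes were higher and 19.7% lower. The lysozyme gene lys-7 was among the 15 largest rises. Its signals were 2908, 4034 and 3809 in wild type against 11409.7, 10948 and 11188 in ife-1, a rise of 1.71 ± 0.17 (adjusted p = 0.000919), and the mutant cultures lay within a few percent of each other. The small peptide gene fipr-2 gave 3879, 3848 and 4872 and 1176, 1434 and 1325, a change of -1.74 ± 0.17 (adjusted p = 0.000919). The infection response gene irg-2, with 146, 119 and 130.5 and 742, 718 and 646, reached 500 in ife-1 only, and the saposin-like spp-18, with 2843, 2035 and 2598 and 499, 739 and 440.0, in all wild-type cultures only. Without ife-1 culture 1, 9 of the 50 fell.

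Detoxification genes fell more often than they rose in the conjugating families. Of 68 glutathione and UDP-glucuronosyl transferase genes 26 fell and 7 rose, with a median of -0.42. The glutathione transferase gst-6 gave 2649, 2593 and 2204 in wild type and 712, 866 and 787 in ife-1, a change of -1.73 ± 0.15 (adjusted p = 0.000757), and gst-26 changed by -1.56 ± 0.16 (adjusted p = 0.000963). Of 33 cytochrome P450 genes 7 rose and 3 fell, and the sign of their median, 0.13, turned with deposited signals and with median scaling. With 19.8% of all genes higher and 19.7% lower, P450 risers were near the share of all genes and fallers below it. The P450 gene cyp-13B1 gave 3471, 3571 and 3926 and 1097, 1536 and 1231, a change of -1.59 ± 0.18 (adjusted p = 0.00116), while cyp-35A2, with 353, 268 and 326 and 1078, 843 and 863, reached 500 in ife-1 only. Under the bacterial scaling 16 of the 68 transferases fell, and leaving out ife-1 culture 1 or 3 singly gave 4 risers in each of the 2 lists. Without wild-type culture 1 the P450 risers were also 4, and without ife-1 culture 1 there was 1 P450 fall.

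Heat shock and chaperone genes went both ways. Of 54 heat shock protein, chaperonin and J-domain genes 12 rose and 7 fell, with a median of 0.24. As 19.8% of all genes were higher and 19.7% lower, the share of risers was near that of all genes. The falls included hsp-12.2, with 8262, 8850.1 and 8002 in wild type and 2264, 3140.1 and 2238 in ife-1, a change of -1.78 ± 0.19 (adjusted p = 0.0011), and hsp-17, which changed by -1.62 ± 0.17 (adjusted p = 0.00107). Signals of hsp-12.1, at 904, 1039 and 1116 and 218, 266 and 262, reached 500 in wild type only. In the opposite direction the general chaperone hsp-90, named after its value was seen, rose by 0.64 ± 0.14 (adjusted p = 0.0121). Without ife-1 culture 1, wild-type culture 1 or ife-1 culture 3 the risers of this list numbered 2, 7 and 4. Falls numbered 4 under the bacterial scaling.

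General gene expression machinery showed smaller, upward median changes. Beside them, 19.8% of all genes were higher and 19.7% lower, with a median of 0.03. The share of splicing risers was near that of all genes. Of 63 translation factor and tRNA synthetase genes 22 rose and 1 (iff-2) fell, with a median of 0.42. The initiation factor subunit eif-3.I gave 602, 816 and 681 in wild type and 2387, 1306 and 2235 in ife-1, a rise of 1.41 ± 0.25 (adjusted p = 0.00488). Of 31 proteasome genes 9 rose and 0 fell, with a median of 0.41 and all 31 changes above 0. The regulatory particle subunits rpt-5 and rpn-3 rose by 1.19 ± 0.25 and 0.90 ± 0.19 (adjusted p = 0.0093 and 0.00879). Of 42 splicing genes 10 rose and 0 fell, with a median of 0.41, and the helicase mog-5, which germ cells need to switch from sperm to oocytes, gave 623, 575 and 621 and 1772, 1169 and 1439.7, a rise of 1.24 ± 0.18 (adjusted p = 0.00252). Without ife-1 culture 1 the risers were 5 of 63, 2 of 31 and 4 of 42, without ife-1 culture 3 they were 8, 2 and 5, and without wild-type culture 1 they were 10, 5 and 6. Without ife-1 culture 2, 17 of the 31 proteasome genes rose, and with a variance trend 15. Splicing genes that rose numbered 18 with deposited signals, 16 with median scaling and 21 under the bacterial scaling.

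By contrast, 0 of 61 cytosolic ribosomal protein genes passed in either direction by limma, where 39.5% of all genes did, with a median of 0.09, 0 at an unadjusted p under 0.05 and changes from -0.26 to 0.37. With a variance trend 2 rose (rps-8 and rpl-11.1), without wild-type culture 2 there was 1 (rps-8), and unnormalized signals gave a median of -0.25 and 4 falls, so no direction can be given for this bright family. Of 47 oxidative phosphorylation genes 6 fell and 1 rose, with a median of -0.14. The complex III gene ucr-2.1 gave 8589.5, 9633 and 10394 in wild type and 5339, 5429.6 and 5453 in ife-1, a change of -0.73 ± 0.15 (adjusted p = 0.00777), and the ATP synthase gene asg-2 changed by -0.76 ± 0.15 (adjusted p = 0.00835). Neither passed under the bacterial scaling. Deposited signals gave 15 falls in this list, median scaling 18, the bacterial scaling 0, and leaving out ife-1 culture 1 or 3 singly gave 3. Without ife-1 culture 2, 4 rose, and with the set number as a block 3. Of 54 mitochondrial ribosomal protein genes 5 rose and 5 fell, with a median of -0.03 whose sign turned with deposited signals, median scaling and the bacterial scaling. Under the bacterial scaling 10 rose and 0 fell by limma, and under each of the other 2 scalings 6 rose and 3 fell. With ife-1 culture 1 or 3 left out singly the counts were 1 and 2, and without wild-type culture 1 they were 3 and 3. With the set number as a block 3 of them fell.

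Histone genes went both ways: 6 of 30 rose and 8 fell, with a median of -0.14 that was 0.21 under the bacterial scaling, where 1 fell. Since 19.8% of all genes were higher and 19.7% lower, the risers were about as frequent as among all genes. The gene his-41 gave 3299.7, 3518 and 3421 in wild type and 1784, 2147 and 1914 in ife-1, a change of -0.93 ± 0.15 (adjusted p = 0.00344) that did not pass under the bacterial scaling, and his-62 gave 2276, 2176 and 2302 and 3868, 4760.1 and 4344, a rise of 0.82 ± 0.15 (adjusted p = 0.00604). Histone genes have near-identical copies, and 20 of the 30 were read by probe sets whose IDs mark shared probes, so the level of a single copy is uncertain. Without ife-1 culture 1, ife-1 culture 3 or wild-type culture 1, the falls were 3, 4 and 4, and with the set number as a block 5.

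Metabolic and secreted protein families differed in how many of their genes fell, beside 19.7% of all genes. Of 53 lipid metabolism genes 13 fell and 4 rose, with a median of -0.19. The fatty acid elongase gene elo-4 gave 1847, 2383 and 1953 in wild type and 528, 588 and 539.5 in ife-1, a change of -1.91 ± 0.15 (adjusted p = 0.000581), with a change of -2.80 in P and -0.83 in NP. Against this, the acyl-CoA synthetase gene acs-4 rose by 0.85 ± 0.15 (adjusted p = 0.00514). Of 34 transthyretin-related genes 21 fell and 1 (ttr-51) rose, with a median of -0.80, and ttr-37 gave 1539, 1498 and 1543 and 608, 683 and 668, a change of -1.30 ± 0.14 (adjusted p = 0.0011). Of 24 central carbon metabolism genes 3 fell and 1 rose. The gluconeogenic pck-1 gave 9521, 13247 and 11226 and 5599, 6146 and 6217, a change of -0.83 ± 0.18 (adjusted p = 0.00962), and the hexokinase gene hxk-1 rose by 0.59 ± 0.15 (adjusted p = 0.0195), a call lost with median scaling and without ife-1 culture 1 or 3. Without ife-1 culture 1, 7 of the 53 lipid genes and 12 of the 34 transthyretin-related genes fell. Under the bacterial scaling these counts were 5 and 13, and without ife-1 culture 3 the lipid count was 8. Lipid genes that rose numbered 2 without wild-type culture 1, ife-1 culture 1 or ife-1 culture 3, and 1 carbon metabolism gene fell without either of these mutant cultures or under the bacterial scaling.

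Large regulatory families were mostly dim, and their counts stand beside 19.8% higher and 19.7% lower over all genes. Of 137 F-box and MATH-BTB adapter genes, whose proteins choose targets for ubiquitin ligases, 24 were members, 33 rose and 13 fell. Among them fbxc-50 gave 1408, 1210.1 and 1449.8 in wild type and 2604, 2590.4 and 2818 in ife-1, a rise of 0.84 ± 0.15 (adjusted p = 0.00528). Of 122 nuclear hormone receptor genes 40 were members, 9 rose and 15 fell. Of 131 chemoreceptor genes 4 were members, 8 rose and 5 fell. Of 12 embryonic patterning genes 5 were members, 1 (nhr-2) rose and 3 fell. The epidermal GATA factor elt-3, one of the latter, gave 3127, 3137 and 2588 and 1589, 2126 and 1655, a change of -0.85 ± 0.18 (adjusted p = 0.00869), which did not pass under the bacterial scaling. Of 10 antioxidant enzyme genes 2 rose and 2 fell. The median changes were 0.17, -0.06, 0.05, -0.30 and -0.16 in the order given, and those of the F-box, nuclear hormone receptor and chemoreceptor families changed sign with at least 1 scaling. With single cultures left out, risers and fallers numbered 15 to 44 and 5 to 13 in the F-box family, 3 to 9 and 7 to 15 among nuclear hormone receptors, and 1 to 12 and 1 to 6 among chemoreceptors. Of these counts those without ife-1 culture 1 were 15 and 6, 6 and 7, and 1 and 1. Those without ife-1 culture 3 were 18 and 5, 3 and 8, and 1 and 4. Scaling moved them too. Chemoreceptors had 0 risers and 13 fallers with deposited signals, 0 and 15 with median scaling, and 4 and 2 under the bacterial scaling. For nuclear hormone receptors these counts were 5 and 22, 5 and 23, and 6 and 6. In the F-box family 8 fell under the bacterial scaling, and embryonic patterning genes had 5, 6 and 1 fallers under the 3 scalings. Without wild-type culture 2 embryonic patterning genes had 3 risers.

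The 15 largest rises also held genes outside the lists, of which some are described here. The uncharacterised C27C7.1 headed them with 725, 782 and 713 in wild type and 3868, 2439 and 4883 in ife-1, a rise of 2.23 ± 0.25 (adjusted p = 0.00118). Every mutant culture was more than 3-fold above every wild-type culture. The ISWI chromatin remodeller gene isw-1 gave 717, 1248 and 717 and 3898, 2349 and 3533, a rise of 1.81 ± 0.29 (adjusted p = 0.00327), with wild-type culture 2 nearest to the mutant. The histone H3 lysine demethylase gene utx-1 gave 850.3, 1217 and 787 and 3141, 3704 and 2794, a rise of 1.69 ± 0.21 (adjusted p = 0.00173). The gene rict-1, for the Rictor subunit of TOR complex 2, gave 554, 617 and 632 and 2152, 1429 and 2656, a rise of 1.75 ± 0.22 (adjusted p = 0.00176). The Rab GTPase-activating protein gene tbc-1 gave 636, 572 and 715 and 2242, 3976 and 2608, a rise of 2.15 ± 0.24 (adjusted p = 0.0012), and here mutant culture 2 was the highest. The peroxidase gene skpo-1 gave 989.5, 1407 and 1091 and 4185, 3509.8 and 3720.0, a rise of 1.68 ± 0.17 (adjusted p = 0.000963). The others of the 15 were H11L12.1, T09B9.4, C49G7.10, W05H9.2 and Y58A7A.3, with changes from 1.64 to 2.16.

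The remaining largest falls, among genes at 500 in all 6 cultures, were of little-known genes. T03F1.11 gave 5568, 4859 and 6087 in wild type and 792, 1165 and 813 in ife-1, a change of -2.59 ± 0.20 (adjusted p = 0.000462). F15B9.8 gave 3160.3, 3323 and 2762 and 558, 606 and 514, a change of -2.47 ± 0.15 (adjusted p = 0.000293), with no mutant culture above 606. H23N18.5, ZK593.3 and E01G4.6 had changes of -2.55 ± 0.37, -2.35 ± 0.15 and -2.28 ± 0.40.

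Members that reached 500 in ife-1 only are described without a test. C38D9.2, with no known function given in the files, gave 151, 122 and 115 in wild type and 5106, 6603 and 6790.1 in ife-1, and was called present on 0 of 6 wild-type and 6 of 6 mutant arrays. By the bound used for ife-1, on geometric means after normalization, its level was at least 50.7-fold higher. T22B7.7 gave 81.7, 162 and 81.6 and 1605, 1137 and 1328, and F15D4.5 gave 161, 233 and 163 and 1472, 2161 and 1725. All 3 were far apart between the genotypes. The beta-tubulin gene tbb-6 gave 236, 265 and 235 and 1248, 1946 and 1168, the scramblase gene scrm-4 291, 304 and 387 and 1957, 1621 and 1982, and the kinase gene cdk-11.2 264, 341 and 142 and 878, 1598 and 1303. In each of the 3 the highest wild-type culture was below 500. The largest change of all members was that of a probe set whose annotation lists several genes, so that none is named: it gave 11.4, 9.70 and 13.4 in wild type and 1939, 1661 and 2282 in ife-1.

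At the threshold, the 3 members just inside were C01B10.9, prx-5 and ZK185.3. The lowest culture of their higher genotype was at 500.1, 500.1 and 500.2. Just outside, that culture was at 499.8 for Y54B9A.1, for F53F10.1 and for a probe set without a named gene.

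Chromosome, which the rule did not use, separated the members. Of 838 member genes on the X chromosome 12.3% were higher and 39.4% lower, with a median change of -0.35. Of 6030 on the autosomes 26.5% were higher and 20.2% lower, with a median of 0.18. Over all measured genes, member or not, 10.9% of 1414 X-linked genes were higher and 29.4% lower, against 21.3% and 18.1% of 8895 autosomal genes. Among the autosomes the share of higher member genes ran from 23.0% on chromosome V to 30.6% on I. That of lower member genes ran from 15.3% on I to 27.8% on V. The X-linked difference was also there among member genes in none of the lists. Of 718 such X-linked genes 13.4% were higher and 36.4% lower, against 27.6% and 19.4% of 5019 autosomal genes. Of the X-linked member genes that rose, 51 of 103 passed 2-fold, against 356 of 1597 autosomal risers. Of those that fell, 172 of 330 X-linked and 629 of 1219 autosomal genes passed 2-fold. Of the 15 largest rises 6 were X-linked, which were tbh-1, H11L12.1, tbc-1, T09B9.4, utx-1 and W05H9.2, and of the 15 largest falls 4 were. These shares are given with no test, and how the tissues in which genes act are spread over the chromosomes was not taken into account.

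**Figure D5:**
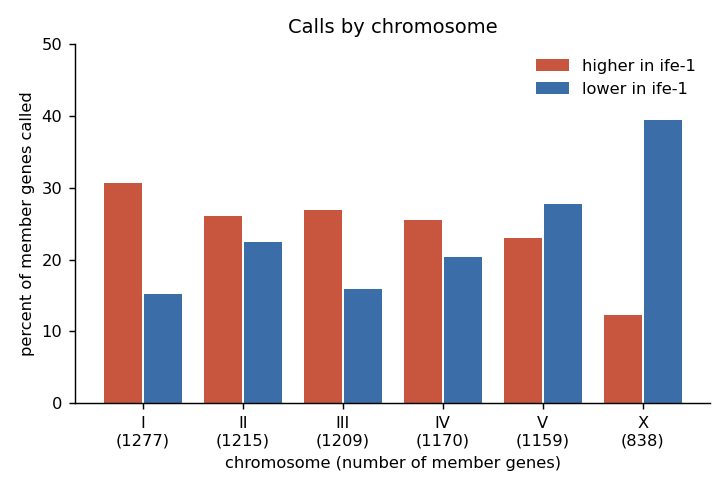
Bars give the percent of member genes on each chromosome that were higher or lower in ife-1, with the number of member genes in brackets. X is the only chromosome besides V where lower genes outnumber higher ones, 39.4% against 12.3%.

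Probe sets of the same gene were compared as a check of the measurement. Of 1319 genes with at least 2 member probe sets, 1137 (86.2%) had changes of 1 sign, and the median range within a gene was 0.24. Among the 769 of them with a called probe set, 3 had probe sets called in opposite directions. IDs of 3963 members, among them those of C27C7.1, col-102 and flp-15, mark probes shared with other transcripts. With those left out, 1171 members were higher and 1110 lower.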

How the data were processed

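For each of 3 wild-type and 3 ife-1(bn127) cultures, P and NP RNA were measured on separate Affymetrix arrays, 12 in all. The authors deposited linear intensities, 1 per probe set and array, which the labels call raw. Their software and scaling are not stated there. Per the file headers, a detection filter by the authors left 13372 of 22626 probe sets, including 39 controls. Their deposited mean fold of the sum, wild type over ife-1, is a ratio that was recomputed within 0.0001 for all 8753 members and not otherwise used. The workbook's other per-sample columns (36) were left out. Detection calls were used by group, since their columns do not identify arrays.

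Signals below 1 (5 values) were set to 1, the 12 arrays were brought to 1 distribution by quantile normalization of log2 values, and log2(P + NP) was compared with limma 3.58.1 (lmFit, eBayes without trend) in R 4.3.3 (Python 3.11.15, pandas 2.3.3 and matplotlib 3.10.9 for tables and figures). The number of arrays limits the precision. Groups came from the labels. The platform annotation gives 1 gene for 8365 members, several for 266 and none for 122. Symbols and chromosomes came from the RefSeq table of assembly WBcel235, and a gene is represented by its brightest probe set. No sequences were used here.

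The deposited outline pairs a wild-type and a mutant culture in each growth set, with separate harvests, so set numbers pair the cultures; same-numbered deviations from the genotype means correlated at -0.126, 0.0135 and 0.189 over members. The block is an alternative fit. Fits were also run on simulated arrays with independent noise and few changed probe sets. That setting differs from these data, so the run supports no result here.

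Named were ife-1 to ife-5, the 15 largest changes in each direction among genes at 500 in all 6 cultures that passed without overlap, the 8 largest in each direction at 500 in 1 genotype only, up to 4 genes with the smallest unadjusted p in each of 38 lists, and 3 probe sets on each side of 500. The text names part of these, and markers of tissues. The members and lists were chosen with earlier results of these data known. After values were seen, name patterns that had caught unrelated genes were narrowed in the chemoreceptor list, and 3 such genes left the spermatogenesis list. Lists are described by counts over all measured genes and by medians, with no test of a list. Of the tissue markers, vit-3, dpy-10, mlt-10, end-1, pes-1, lov-1, pkd-2 and cil-7 were not analysed here, and elt-1 was not a member.

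Alternatives were deposited signals, median scaling, normalization within fractions, scaling on bacterial controls, an offset of 50, the mean of log2 P and log2 NP, a variance trend, the block, a fit on members only, thresholds of 250 and 1000, 500 in all 6 cultures, unshared probe IDs, and leaving out each set and each culture.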

Additional observations from a re-analysis of the deposited data

How the results depend on the processing

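With arrays scaled on the bacterial control probe sets, 3130 members were higher and 997 lower, and the median over all probe sets was 0.27 in place of 0.06; the cause was not tested. Fewer probe sets by construction gave 1246 lower members at a threshold of 1000, 1207 at 500 in all 6 cultures, and 1171 higher and 1110 lower without IDs that mark shared probes. With sets as a replicate block there were 1985 higher and 1757 lower members. In that fit ssp-37 and pyk-2 lost their calls (limma adjusted p = 0.0648 and 0.0569). Of the named genes followed singly, the other 166 kept their result. Some genes named with a call, such as ges-1, myo-3, rab-3, tdc-1, cpg-9 and hsp-90, were not followed singly. Leaving out 1 set gave 104 to 2465 higher and 452 to 2159 lower members, and leaving out 1 culture 922 to 2270 and 1198 to 1994. The highest of these counts came without set 2 and without wild-type culture 2, and were above the 2258 and 1878 of the full fit. No call reversed under any of these settings, which reuse cultures of the main fit. Counts of all higher and of all lower members within 1.5 times of the reported ones came from deposited signals, median scaling, normalization within fractions, an offset of 50, the mean of log2 P and log2 NP, a variance trend, a fit on members only and a threshold of 250; counts within gene lists moved further under some of these. Signals near background limit the dimmest members, of which 15 had no present call in ife-1 and 8 none in wild type.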

Other observations

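Neighbours of ife-1 on chromosome III changed in both directions. Within 5 genes on either side, the measured nud-1 and mtm-6 had changes of 1.20 ± 0.16 and 1.23 ± 0.20 (adjusted p = 0.00197 and 0.00346), acaa-2 of -0.64 ± 0.15 (adjusted p = 0.0134), and lis-1 and F53A2.3 differed by 0.11 ± 0.18 and -0.01 ± 0.14 (adjusted p = 0.661 and 0.972). The other genes in that stretch were not analysed here.

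Among members whose probe sets name several genes, so that no gene is given, 1 was at 447, 281 and 526 in wild type and at 11635, 12279 and 11576 in ife-1, and another at 12481, 13291 and 11679 in wild type and at 729, 973 and 633 in ife-1. The second had a change of -4.02 ± 0.19 (limma adjusted p = 0.000107).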
